A study of Danio rerio with 3 samples.

Results

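Antioxidant defence genes of the zebrafish embryo were examined for their response to a brief cortisol bath around fertilisation. The set was given by 10 names: cat, sod1, sod2, gpx1a, gpx4b, prdx1, txn, sqstm1, nfe2l2a and keap1a. Array probes were taken where the gene name in the array files was one of these or an older synonym, which gave 28 of 43603 probes and 11 of 27217 genes. The name txn is an older name of both txna and txnb, so both thioredoxin genes were kept. In the array files prdx1 was listed as zgc:110343 and nfe2l2a as nfe2l2, and the thioredoxins also as zgc:56493 (txna) and zgc:92903 (txnb).

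Wild type ovulated oocytes from pet shop fish were kept from 0 to 2 hours post fertilisation (hpf) in fish water holding either cortisol at 5 mg/L (13.8 µM) or 2 ml of its ethanol vehicle per litre. Whole embryos raised at 28.5 °C were fixed at 5, 12 or 24 hpf. At each stage vehicle RNA was labelled green (Cy3) and cortisol RNA red (Cy5) on 2-colour oligonucleotide arrays, with no dye swap, so dye and treatment cannot be told apart. The design names 4 replicates at 5 hpf, 3 at 12 hpf and 1 experiment at 24 hpf, but only 1 value per spot and channel was at hand for a stage, so variation between batches of embryos is unknown and nothing was tested. Of the green spot signals, 27.4% at 5 hpf and 39.8% at 12 hpf were exact multiples of 0.5, against 99.5% at 24 hpf, so the values of the earlier stages may be means over several arrays, which the sources used here do not state. The antagonist and receptor messenger treatments named in the title were not analysed here.

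Aerobic cells continually form superoxide and hydrogen peroxide. Superoxide dismutases turn superoxide into hydrogen peroxide, which is then removed by catalase, by glutathione peroxidases and by peroxiredoxins, the last of these being recharged by thioredoxin. Many of these genes are switched on by the transcription factor Nrf2, which Keap1 marks for degradation until electrophiles or oxidants modify Keap1. The autophagy receptor p62, encoded by sqstm1, binds Keap1 and is itself an Nrf2 target in mammals.

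The red channel was bright at 5 hpf and dim later. The 95th percentile of red signal over that of green, each minus local background, was 1.97 at 5 hpf, 0.076 at 12 hpf and 0.146 at 24 hpf. All 28 probes of the set exceeded the negative controls in both channels at 5 hpf, 22 did at 12 hpf and 21 at 24 hpf, and every one of the 11 genes kept at least 1 such probe at each stage. The pooled SD of the log2 ratio between different probes of a gene was 0.205, 0.334 and 0.332 at the 3 stages over all genes, and it is the only measure of error available. It does not include variation between embryos. It describes the spread of single probes, which is wider than the between-probe error of a mean over several probes. The labels of 5 and 24 hpf were checked in vehicle RNA. From 5 to 24 hpf, 16 of 16 early markers on the array went down in signal and 21 of 21 late markers went up. The 12 hpf label was not checked in this way.

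**Figure D1:**
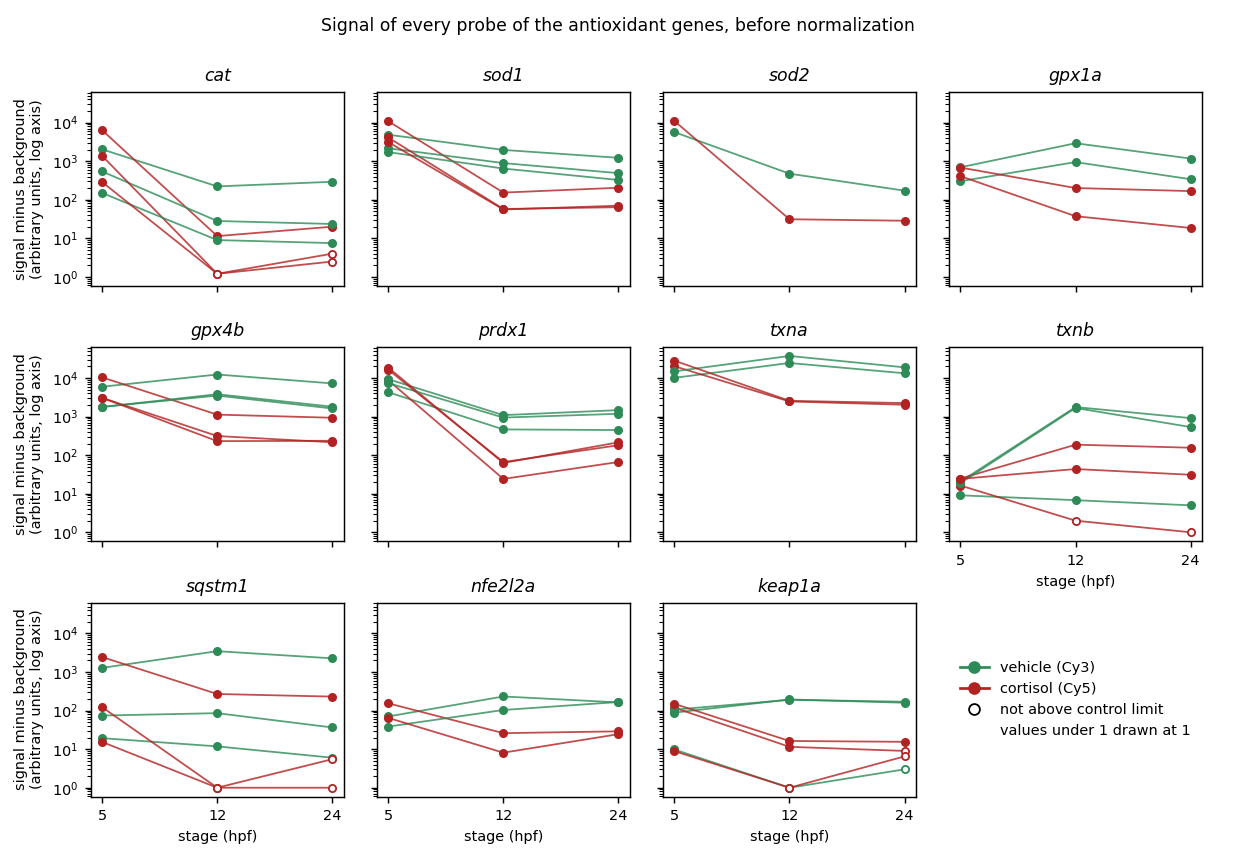
Signal minus local background (arbitrary units, log axis) of each probe of the 11 genes at 5, 12 and 24 hpf in vehicle (green) and cortisol (red) embryos, before normalization; each line is 1 probe and open points did not exceed the negative controls. Red lies above green at 5 hpf for most probes and below green at 12 and 24 hpf for nearly all, in step with the array-wide red over green brightness of each stage, and the vehicle signals of cat, sod2 and prdx1 are far lower at 12 than at 5 hpf.

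Cortisol-treated embryos differed little from vehicle embryos in these genes as a group. Ratios are cortisol over vehicle on the log2 scale after normalization, so positive values stand for more signal after cortisol. The median over the 11 genes was -0.05 at 5 hpf, -0.09 at 12 hpf and -0.23 at 24 hpf, against -0.03 to 0.01 over all measured genes. In the deposited ratio the medians were -0.02, -0.18 and -0.07, so the lowest stage was 12 hpf there. The medians over all measured genes in that ratio were 0.009, -0.086 and 0.001, so they too were lowest at 12 hpf. At 5 hpf 7 of the 11 genes lay below 0, at 12 hpf 9 and at 24 hpf 8, whereas 46.2%, 55.8% and 53.7% of all measured genes did. At 24 hpf the lower part of the set was made up of sqstm1, cat, gpx1a, txnb and keap1a, and the highest gene of the set was sod1 at 0.04.

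A single gene passed 1.5-fold at any stage, gpx1a, which was lower at 5 hpf. At 5 hpf 1 of 11 genes was thus at least 1.5-fold lower and 0 were higher, where 0.932% and 2.95% of the 19309 measured genes were. At 12 hpf 0 were lower and 0 higher, beside 3.24% and 1.58% of all measured genes, and at 24 hpf again 0 and 0, beside 4.43% and 1.26%. None reached 2-fold in either direction, as 0.715%, 0.901% and 1.11% of all measured genes did at 5, 12 and 24 hpf. With 11 genes, counts this small are close to what the shares over all genes give.

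In the authors' deposited ratio gpx1a and keap1a were at least 1.5-fold lower at 5 hpf, cat at 12 hpf and sqstm1 at 24 hpf. The keap1a mean took in a probe near background at -0.99, its 2 brighter probes being at -0.39 and -0.54. No gene of the set was 1.5-fold higher. Over all genes the pooled SD between probes was wider in that ratio, at 0.323, 0.438 and 0.445 at 5, 12 and 24 hpf. Between probes of the set it was 0.393, 0.234 and 0.206, against 0.159, 0.366 and 0.28 in the ratio from the scanner signals, so wider at 5 hpf only. The lower counts of 2, 1 and 1 compare with 7.12%, 11.7% and 9.2% of all measured genes in that ratio. Shares of genes past 1.5-fold in either direction were 16.4%, 17.8% and 19.3% in that ratio. No gene passed 1.5-fold in both ratios at the same stage except gpx1a at 5 hpf.

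**Figure D2:**
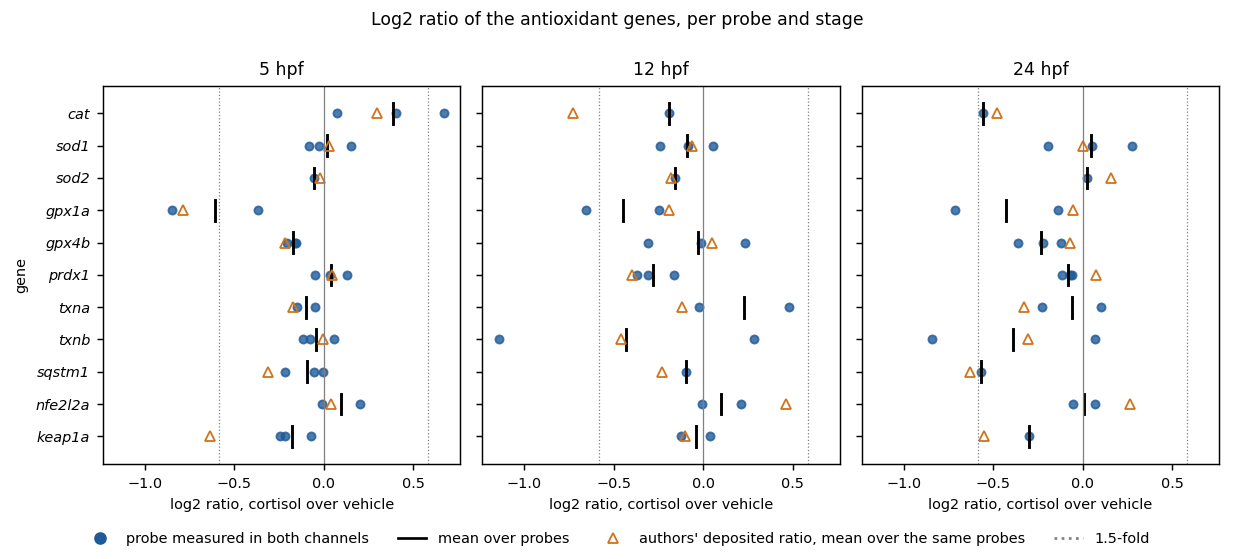
Log2 ratio of cortisol over vehicle (x axis) for each of the 11 genes (y axis) at 5, 12 and 24 hpf; blue points are probes measured in both channels, black bars their mean, orange triangles the mean of the authors' deposited ratio over the same probes, dotted lines 1.5-fold. The mean of gpx1a at 5 hpf (-0.61) is the only bar beyond a dotted line, and the 2 probes of txnb at 12 hpf lie far apart at -1.14 and 0.28.

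**Figure D3:**
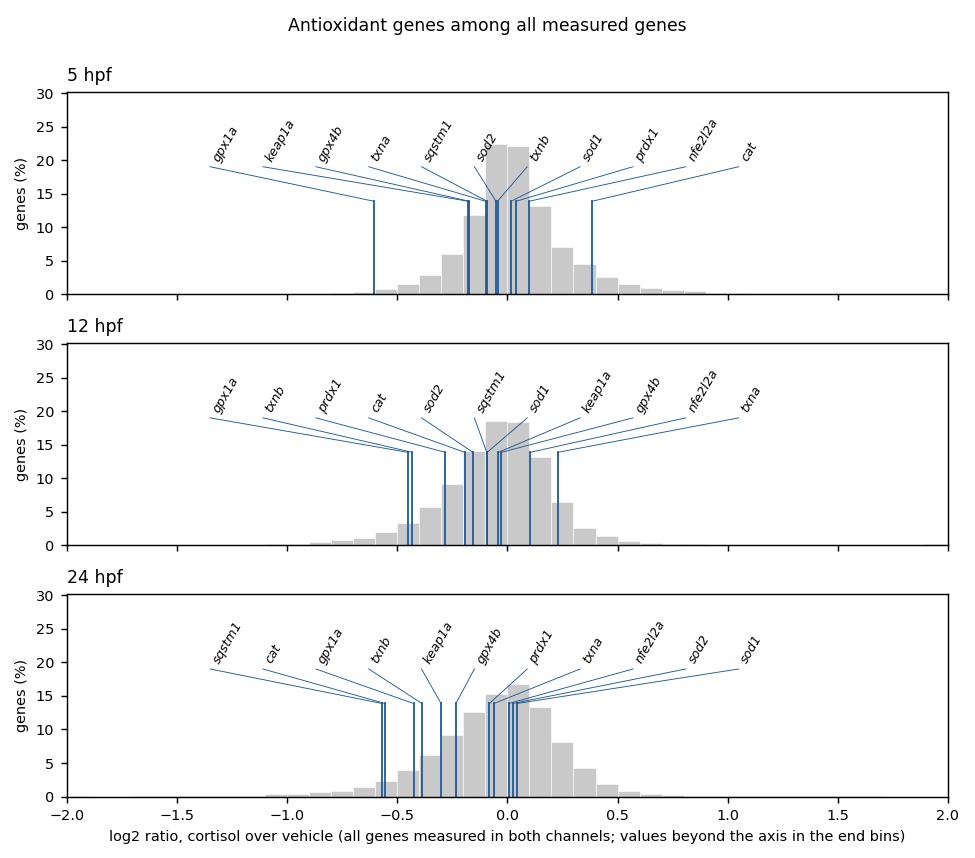
Share of all genes measured in both channels (y axis, percent) by log2 ratio of cortisol over vehicle (x axis) at 5, 12 and 24 hpf, with the 11 antioxidant genes marked by blue lines. At 5 hpf gpx1a lies in the low tail and cat in the upper part, and at 24 hpf sqstm1 and cat lie furthest to the left of the set, at -0.57 and -0.56.

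The superoxide dismutases showed no difference beyond the spread of their probes. Of sod1, the cytosolic copper-zinc enzyme, the 3 probes gave vehicle signals of 4859.8, 2158.5 and 1718.3 and cortisol signals of 10898.1, 4121.3 and 3132.3 at 5 hpf. These are close to the general red over green brightness of that stage. The mean log2 ratio of sod1 was 0.02 at 5 hpf (SD 0.12 between probes), -0.09 at 12 hpf (SD 0.15) and 0.04 at 24 hpf (SD 0.24). The mitochondrial manganese enzyme sod2 had 1 probe, at 5673.5 in vehicle and 11054.2 in cortisol at 5 hpf. It read 474.3 against 31.2 at 12 hpf and 171.5 against 28.5 at 24 hpf. Its log2 ratios were -0.05, -0.16 and 0.02. Each of these means lay within the pooled SD between probes of its stage, and in the deposited ratio both genes stayed between -0.18 and 0.16.

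Catalase, the peroxisomal enzyme that splits hydrogen peroxide, was on the high side at 5 hpf and on the low side at 24 hpf. Its 3 probes gave 2028.6, 541.8 and 150.0 in vehicle and 6380.4, 1375.8 and 288.0 in cortisol at 5 hpf. The log2 ratios were 0.67, 0.41 and 0.08, so all probes were above 0 but the brightest was well above the dimmest. The mean was 0.39 (SD 0.30 between 3 probes), at percentile 92.6 of all measured genes, and the deposited ratio gave 0.30. At 12 hpf the red signal of 2 of the probes did not exceed the controls. The remaining probe read 221.7 in vehicle and only 11.4 in cortisol, a log2 ratio of -0.19. That probe at 24 hpf read 292.0 and 20.0, a log2 ratio of -0.56, at percentile 5.12 of all measured genes. Both late values of cat therefore rest on 1 probe with a red signal within 20 units of background. In the deposited ratio they were -0.73 and -0.48. The 24 hpf value was -1.13 with plain background subtraction. It was -0.20 when the 2 dim probes were kept, inside the pooled SD between probes. The red signals of these 2 probes were 4.0 and 2.5 over background at 24 hpf. The offset added in background correction keeps their ratios near 0, at -0.06 and 0.00, so the mean had to shrink. That mean therefore does not place the 24 hpf value within the error. In the deposited ratio the 2 dim probes were at -1.23 and 0.00.

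Glutathione peroxidase 1, encoded by gpx1a, reduces hydrogen peroxide with glutathione and was lower in cortisol-treated embryos. At 5 hpf its 2 probes read 301.7 and 693.2 in vehicle and 409.3 and 684.1 in cortisol. Red and green were thus similar, on an array where the 95th percentile of red was 1.97 times that of green. The log2 ratios were -0.37 and -0.85, with a mean of -0.61 (SD 0.34 between 2 probes), a 1.52-fold lower level at percentile 0.829 of all measured genes. The deposited ratio was -0.79, at percentile 3.71, whereas with the background fitted on every spot the mean was -0.58 and just short of 1.5-fold. The brighter probe was at percentile 0.283 of all measured probes.

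The later values of gpx1a were also below 0 but less clear. At 12 hpf the probes read 946.3 and 2918.8 in vehicle and 37.4 and 201.1 in cortisol, with log2 ratios of -0.65 and -0.25. At 24 hpf they read 340.0 and 1167.0 against 18.5 and 167.5, with ratios of -0.71 and -0.14. Here the probe that was nearer to 0 at 5 hpf was the lower one, and its red signal at 24 hpf lay within 20 units of background. The means of -0.45 and -0.43 shrank to -0.19 and -0.05 in the deposited ratio. With plain background subtraction they were -0.48 and -0.74, the latter past 1.5-fold. The difference at 24 hpf thus depended on the processing in both directions.

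The phospholipid hydroperoxide glutathione peroxidase gpx4b, which protects membrane lipids, was bright and nearly level. At 5 hpf its 3 probes read 5955.6, 1783.0 and 1776.4 in vehicle and 10425.0, 3072.0 and 3066.9 in cortisol. Their log2 ratios lay between -0.21 and -0.16, a tight group with an SD of 0.03. The mean was -0.17 at 5 hpf, -0.03 at 12 hpf with probes from -0.31 to 0.23, and -0.23 at 24 hpf with probes from -0.36 to -0.12. In the deposited ratio the means were -0.21, 0.05 and -0.07. The value at 5 hpf was thus small, similar in all 3 probes and similar in both ratios, and 14.6% of all measured genes were as low or lower.

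Peroxiredoxin 1, a thiol peroxidase recharged by thioredoxin, was level at 5 hpf and slightly lower at 12 hpf. Its 3 probes read 9365.0, 7380.4 and 4294.5 in vehicle and 18721.6, 16576.6 and 8801.7 in cortisol at 5 hpf, with a mean log2 ratio of 0.04 (SD 0.09). At 12 hpf they read 1091.9, 943.8 and 465.0 against 62.7, 66.3 and 24.2. The ratios of -0.37, -0.17 and -0.31 were all below 0, with a mean of -0.28 (SD 0.11). That mean lay inside the pooled SD of single probes at that stage, which is wider than the between-probe error of a mean over 3 probes. The deposited mean at 12 hpf was -0.40. At 24 hpf the 3 probes lay between -0.11 and -0.06, and the deposited mean was 0.07.

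Of the thioredoxins, small proteins that reduce disulphides, txna was among the brightest signals and txnb was nearly silent at 5 hpf. The 2 probes of txna read 14900.6 and 10117.1 in vehicle and 28315.3 and 20313.3 in cortisol at 5 hpf, a mean log2 ratio of -0.10. At 12 hpf they read 37412.5 and 24591.2 against 2568.7 and 2469.6, with ratios of -0.02 and 0.48. Their mean of 0.23 is not settled: it was 1.76 with the background fitted on every spot and -0.12 in the deposited ratio. At 24 hpf the mean was -0.06, with -0.33 in the deposited ratio.

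For txnb the probes went apart. At 5 hpf all 3 were dim, between 9.1 and 20.6 in vehicle and between 16.3 and 24.7 in cortisol. Their log2 ratios lay from -0.12 to 0.06, but the offset added in background correction keeps the ratios of such dim probes small. In the deposited ratio these 3 probes were at -0.78, 1.00 and -0.24, so the narrow range does not show that txnb was level at 5 hpf. At 12 hpf 2 probes had become bright, with nearly equal vehicle signals of 1767.5 and 1674.3, but cortisol signals of 187.1 and 43.7. Their log2 ratios were 0.28 and -1.14, and at 24 hpf 0.07 and -0.84, the same probe being the lower one. The deposited ratio put these probes nearer to each other, at -0.14 and -0.78 at 12 hpf and at -0.24 and -0.37 at 24 hpf. The means of -0.43 and -0.39 describe neither probe, and no direction can be given for txnb. The third probe stayed near background throughout.

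Of the regulators, nfe2l2a, which encodes Nrf2, showed no difference beyond its probe spread in the ratio from the scanner signals. Its 2 probes read 70.5 and 38.5 in vehicle and 154.9 and 64.8 in cortisol at 5 hpf, 232.5 and 103.7 against 26.0 and 8.1 at 12 hpf, and 163.0 and 167.0 against 29.0 and 24.5 at 24 hpf. The mean log2 ratios were 0.10, 0.10 and 0.01. In the deposited ratio they were 0.04, 0.46 and 0.26, so that nfe2l2a was the highest gene of the set there at 12 and 24 hpf. Both probes were above 0 in that ratio at these stages, at 0.69 and 0.24 and at 0.23 and 0.30. At 5 hpf they were at 0.22 and -0.13.

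The Nrf2 inhibitor gene keap1a was on the low side. Its 2 brighter probes read 105.7 and 88.5 in vehicle and 150.0 and 118.9 in cortisol at 5 hpf, with log2 ratios of -0.22 and -0.25. The gene mean was -0.18 (SD 0.09 between 3 probes) at 5 hpf and -0.04 at 12 hpf. At 24 hpf 1 probe was measured in both channels, at 170.0 and 15.5, with a ratio of -0.30. A second probe at 24 hpf had a vehicle signal of 160.0 and a cortisol signal of 9.0, which was not above the controls. In the deposited ratio keap1a was lower at 5 and 24 hpf, at -0.64 and -0.55, and near 0 at 12 hpf, at -0.10. At 5 hpf its 2 brighter probes were at -0.39 and -0.54 in that ratio, each short of 1.5-fold. The third probe, near background at 9.8 in vehicle and 8.9 in cortisol, was at -0.99. With plain background subtraction keap1a lay at -0.40, -0.09 and -0.795 at 5, 12 and 24 hpf, the last past 1.5-fold.

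The sqstm1 gene was near 0 at 5 and 12 hpf and low at 24 hpf, but the earlier gene means depended on the processing. Its bright probe read 1282.3 in vehicle and 2449.0 in cortisol at 5 hpf, then 3475.8 against 269.8 at 12 hpf and 2265.0 against 230.5 at 24 hpf. The log2 ratios of this probe were 0.00, -0.09 and -0.57. The value at 24 hpf is a 1.48-fold lower level, at percentile 4.85 of all measured genes, and it was -0.63 in the deposited ratio. Unlike the late values of cat, it comes from a bright spot. The gene means of -0.09 at 5 and at 12 hpf were -0.31 and -0.23 in the deposited ratio, and the 12 hpf value was -0.48 with the background fitted on every spot. At 5 hpf the bright probe was at -0.03 in the deposited ratio and the other 2 at -0.12 and -0.79. The other 2 probes of sqstm1 were dim, lay at -0.05 and -0.22 at 5 hpf and did not exceed the controls in red at the later stages, so the 24 hpf value also rests on 1 probe. With these 2 dim probes kept the gene mean at 24 hpf was -0.26, inside the pooled SD between probes, as was that of cat. Their red signals minus background were 5.5 and -7.0 at 24 hpf. The offset added in background correction keeps ratios of such dim probes near 0, here at -0.06 and -0.16, so the mean had to shrink. It therefore does not place the value of the bright probe within the error. In the deposited ratio the 2 dim probes were at -1.63 and 0.00.

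The wider antioxidant system was viewed through a list of 89 further symbols, of which 74 were found on the array. At 5 hpf 70 of them were measured, with a median of -0.06, and 2 were at least 1.5-fold higher and 2 lower. At 12 hpf 63 were measured, with a median of -0.07, 0 higher and 1 lower. At 24 hpf 65 were measured, with a median of -0.04, 0 higher and 3 lower. Of all measured genes, 2.95% were higher and 0.932% lower at 5 hpf, 1.58% higher and 3.24% lower at 12 hpf, and 1.26% higher and 4.43% lower at 24 hpf, so at every stage the counts over the wider list differ by a few genes at most from those shares.

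At 5 hpf the highest genes of the wider list were pgd, an NADPH-forming enzyme of the pentose phosphate pathway, and sod3a, which encodes extracellular superoxide dismutase. The 4 probes of pgd lay between 0.48 and 0.85, with a mean of 0.71 and 0.62 in the deposited ratio. The 2 probes of sod3a lay at 0.30 and 1.04. Next were gstt1a, a glutathione transferase, at 0.49 and the mitochondrial peroxiredoxin prdx3 at 0.42, whose 2 probes gave 0.41 and 0.42. The lowest were gsto2, an omega-class glutathione transferase, at -0.69 and sesn3, a stress-responsive sestrin, at -0.68. Also low were mgst3b, a microsomal glutathione transferase, at -0.40 and hmox1a, the inducible heme oxygenase, at -0.39 from a dim spot of 52.4 in vehicle and 50.6 in cortisol. The values of gstt1a, gsto2, sesn3, mgst3b and hmox1a each rest on 1 measured probe.

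At 12 hpf taldo1 and tktb, both of the non-oxidative pentose phosphate pathway, were lowest at -0.86 and -0.55. The 3 measured probes of taldo1 ranged from -1.42 to -0.11, and the deposited mean was -0.30. The microsomal transferase mgst3a lay at -0.55, and prdx3, high at 5 hpf, lay at -0.47. Highest among genes whose measured probes shared a sign were txnipa, the thioredoxin-interacting protein, at 0.44, sesn3 at 0.42 and keap1b at 0.41. Next came the mitochondrial carrier gene ucp2 at 0.31. The mean of nfe2l3 lay above that of ucp2, at 0.40, but its 3 measured probes ranged from -0.24 to 1.34. The 12 hpf values of tktb, mgst3a, txnipa and sesn3 each rest on 1 measured probe. At 24 hpf sesn3 was lowest at -0.81, with mgst3a at -0.73, the ferritin heavy chain gene fth1a at -0.49 and the quinone reductase gene nqo1 at -0.45. The deposited ratios of these 4 genes were -1.15, -0.25, -0.12 and -0.57, so fth1a and mgst3a were less low there. The third gene past 1.5-fold at 24 hpf was taldo1 at -0.78, with probes from -1.39 to 0.08. The highest mean of the list at 24 hpf was that of nfe2l3, a relative of Nrf2, at 0.32, but its 3 measured probes ranged from -0.11 to 1.09. Among genes whose measured probes shared a sign, the highest at 24 hpf were selenop, the selenium carrier, at 0.27, prdx2 at 0.26, the ubiquitin ligase scaffold gene cul3a at 0.23 and txnipa at 0.20. A gene with 1 measured probe meets that rule by default, as did cul3a and txnipa here and sesn3, mgst3a and nqo1 among the lowest.

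**Figure D4:**
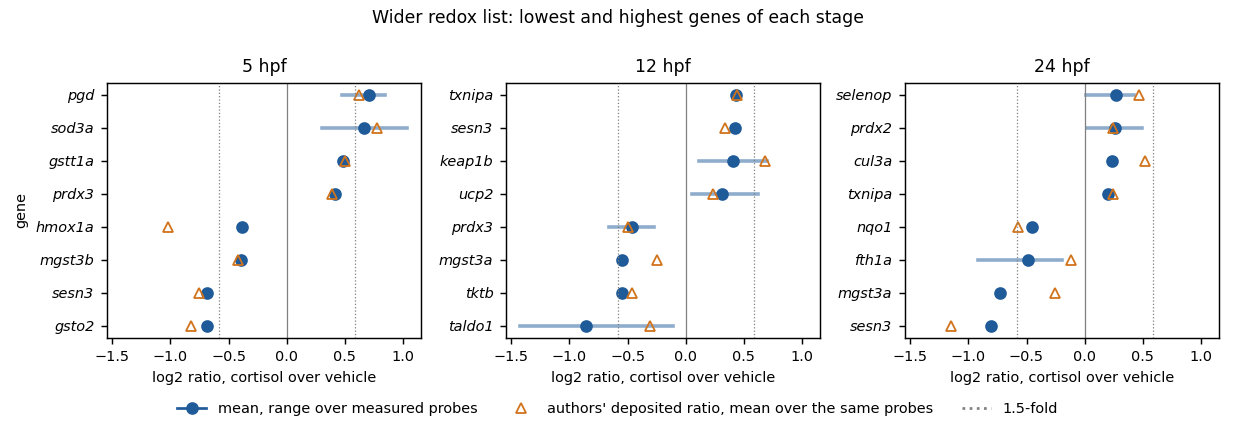
Log2 ratio of cortisol over vehicle (x axis) of the 4 lowest and 4 highest genes of the wider list (y axis) at 5, 12 and 24 hpf, among genes with the same sign in all measured probes and in the deposited ratio; points are means over probes, lines the range over probes, triangles the deposited ratio, dotted lines 1.5-fold. The gene sesn3, which has 1 probe, is among the lowest at 5 and 24 hpf (-0.68 and -0.81) and among the highest at 12 hpf (0.42).

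Some further genes of the wider list had been chosen by name. The subunits of glutamate-cysteine ligase, the first enzyme of glutathione synthesis, were at -0.12, -0.23 and -0.03 (gclc) and at -0.14, -0.18 and 0.04 (gclm) at 5, 12 and 24 hpf. The thioredoxin reductase gene txnrd3 lay at -0.24, -0.19 and 0.07, and the glutathione reductase gene gsr at 0.11, 0.02 and 0.19. The cytosolic peroxiredoxin gene prdx2 was at 0.01 and -0.10 before 24 hpf, fth1a at 0.15 and -0.22, and hmox1a at 0.26 and -0.02 at 12 and 24 hpf. The dim hmox1a spot went against the deposited ratio at 12 hpf, which was -1.09. Apart from txnrd3 and hmox1a at 5 hpf and fth1a at 24 hpf, the values of these genes lay within the pooled SD between probes of their stage, and the second Nrf2 gene nfe2l2b was not analysed here.

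The second Keap1 gene, keap1b, went the other way from keap1a at 5 hpf. Its brightest probe read 16154.9 in vehicle and 54303.9 in cortisol at 5 hpf and another probe 838.3 and 2241.6. All 4 probes lay above 0, between 0.08 and 0.65, with a mean of 0.37, against -0.18 for keap1a. The other 2 of them were near background, at 6.3 and 7.0 in vehicle and 11.8 and 29.1 in cortisol. Their ratios were 0.08 and 0.29, against 0.65 and 0.47 for the 2 brighter probes. At 12 hpf its 2 measured probes were at 0.70 and 0.12, and at 24 hpf they parted to 0.29 and -0.39. The difference between both genes was not tested.

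Far larger than any treatment difference were the changes of several genes between stages in vehicle embryos. Vehicle signals after background correction and loess were quantile-normalized between arrays for this. Each stage was hybridised on its own array set, so stage and array set cannot be told apart, and in whole embryos fewer expressing cells and less RNA per cell cannot be told apart either. Between 5 and 12 hpf 4 of 11 genes were at least 2-fold lower and 2 at least 2-fold higher, where 11.6% and 11.2% of 17907 genes were. The lower genes were sod2, prdx1, cat and sod1, and the higher ones txnb and gpx1a. Enzymes that remove hydrogen peroxide were thus found on both sides, prdx1 and cat lower and gpx1a higher.

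The mitochondrial gene sod2 was lower at 12 than at 5 hpf by a log2 change of -3.32, a 9.98-fold lower signal. The 3 probes of prdx1 lay between -3.21 and -2.92, an 8.23-fold lower signal on average. Those of cat lay between -2.59 and -1.23 and those of sod1 between -1.46 and -1.30, which is 4.01-fold and 2.61-fold lower. Every probe of these 4 genes pointed the same way. For cat the size depended on how background was handled. Signal minus background with no offset gave -3.88 with quantiles and -4.05 with 75th percentile scaling, whereas with the offset kept the values were -2.01 and -1.97.

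The vehicle signal of gpx1a was higher at 12 hpf by 1.36, with both probes above 1. The 2 responsive probes of txnb went from 20.6 and 18.8 to 1767.5 and 1674.3, the larger log2 change being 3.52. The gene mean of 2.31 was 3.90 without the offset, so its size is not settled, and its 5 hpf signals were near background. The remaining genes lay between 0.36 for sqstm1 and 0.71 for gpx4b. The probes of sqstm1 ranged from -0.11 to 1.07, the highest being its bright probe, at 1282.3 and 3475.8. The gpx4b value was 0.16 with 75th percentile scaling and the offset kept, and 0.77 and 0.83 without the offset. Of the remaining genes, nfe2l2a at 0.63 passed 2-fold in each of the 3 other settings, at 1.24 to 1.45. For txna the value of 0.66 ranged from 0.21 to 1.09 over them.

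Between 12 and 24 hpf the differences were smaller. Only prdx1 passed 2-fold, higher by 1.09 with probes from 0.72 to 1.32, so 1 gene was higher and 0 were lower, beside 4.44% and 2.37% of 18069 genes. With 75th percentile scaling and the offset kept this value was 0.86. Without the offset nfe2l2a also reached 2-fold, at 1.00 with 75th percentile scaling and 1.03 with quantiles. The vehicle level of prdx1 at 24 hpf was still below that at 5 hpf, by a log2 change of -1.95, or -2.67 to -2.06 in the other settings. The pair of regulators nfe2l2a and keap1a lay at 0.61 and 0.52, and over the whole course from 5 to 24 hpf at 1.24 and 0.98. In signal minus background with 75th percentile scaling these were larger, at 2.37 and 1.47. The dismutase genes did not return, with sod2 at -3.67 and sod1 at -1.21 over that course.

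**Figure D5:**
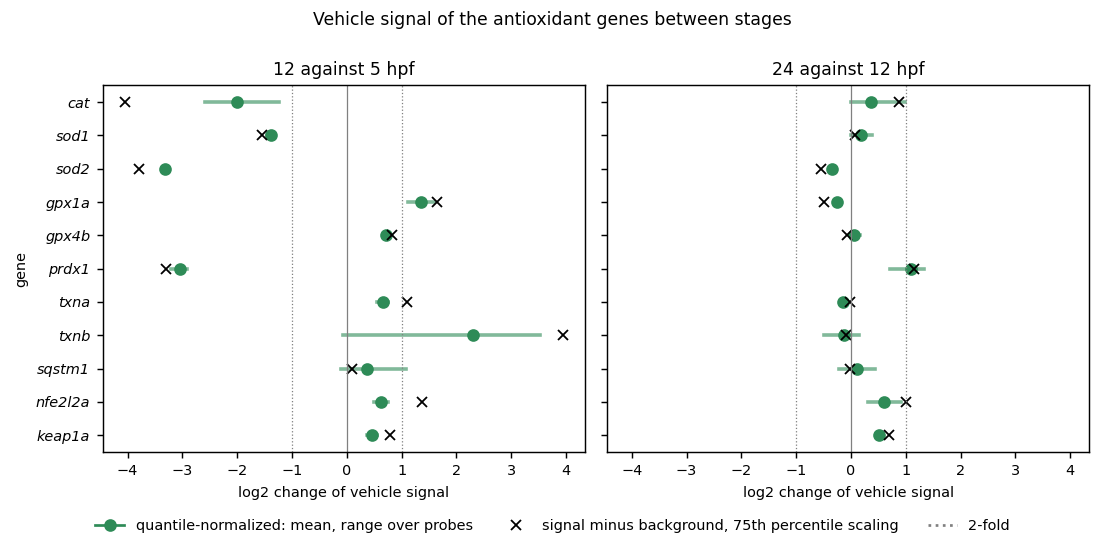
Log2 change of the vehicle signal (x axis) of the 11 genes (y axis) from 5 to 12 hpf and from 12 to 24 hpf; green points are means and lines the range over probes after quantile normalization, crosses the means of signal minus background, without offset, after 75th percentile scaling, dotted lines 2-fold. From 5 to 12 hpf the green points of sod2 (-3.32), prdx1 (-3.04), cat (-2.01) and sod1 (-1.38) lie to the left. Those of txnb (2.31) and gpx1a (1.36) lie to the right. From 12 to 24 hpf the green point of prdx1 (1.09) alone lies beyond a dotted line, and the cross of nfe2l2a lies at 1.00.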

How the data were processed

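The authors deposited, per stage, median spot and local background intensity for both channels from Agilent Feature Extraction (per the file headers and the submitters' processing notes), whose version and array annotation are not given in the sources used here. A log10 ratio (red over green, normalized by the authors) was deposited too, as were processed intensities, per the file headers; it was rescaled to log2 here. From the scanner intensities, spots whose local background was more than 2 times the median of the array were left out (12, 9 and 0 at 5, 12 and 24 hpf), background was corrected by normexp with offset 50, and ratios were normalized by loess with 1417 control spots at weight 0 (limma 3.58.1, R 4.3.3). Probes counted as measured in a channel when brighter than the average of the 153 negative control spots plus 2 SD, as 31445, 20042 and 18831 probes were in both channels. Spots of a probe, then measured probes of a gene, were averaged. For a probe dim in 1 channel no fold is given. Background genes were named through RefSeq (assembly GRCz12tu, names only) by accession for 25258 probes, by symbol for 2766 and by synonym for 1675, and 13904 kept the name in the file. Python 3.11.15, pandas 2.3.3 and numpy 2.4.6 were used.

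With 1 set of values per stage no test was run; precision is limited by how few arrays there are. The members and lists were chosen with earlier results of these data known. All 11 genes are named with every probe; of the wider list, the 4 highest and 4 lowest per stage with the same sign in all measured probes and in the deposited ratio, and 9 genes fixed by name. Genes singled out beyond this rule (taldo1 at 24 hpf, nfe2l3, other peroxiredoxins) were chosen after their values were seen. Promoter and protein sequences were not used here.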

Additional observations from a re-analysis of the deposited data

Results flagged for a closer look

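The log2 ratio of cat was 0.39 at 5 hpf and -0.56 at 24 hpf, a difference of -0.94 between the stages. Each value lay beyond the pooled SD between probes of its stage, in opposite directions. The difference sets a mean over 3 probes at 5 hpf against 1 of these probes at 24 hpf. That probe alone was at 0.67 at 5 hpf, and the other 2 were at 0.41 and 0.08. In the authors' deposited ratio the values of cat at 5 and 24 hpf were 0.30 and -0.48. With the 2 dim probes kept the value at 24 hpf was -0.20, inside the pooled SD of 0.332. The offset added in background correction keeps the ratios of these dim probes small, so this mean does not place the 24 hpf value within the error. The difference between the stages was not tested, since each stage has 1 set of values. The 24 hpf value comes from 1 probe with a cortisol signal of 20.0 over background, and the part of the dim red channel in it was not tested.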

How the results depend on the processing

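No paired analysis was possible because each stage has 1 set of values and no test was run; for the same reason no replicate could be left out. The 33 log2 ratios (11 genes, 3 stages) all kept their sign with no filter on dim probes. That setting can change only cat, txnb, sqstm1 and keap1a at 12 and 24 hpf. The other values rest on the same probes either way, so it says nothing of their signs. Adding probes by accession changed no value, since none were found. A filter on signal minus background, chosen after seeing the data, also left every value as it was. Using txnb alone for txn, also chosen after seeing the data, cannot change the other 30 values, so it says nothing of their signs. All 32 values that could be had when both channels had to exceed the array's median kept their sign. With the background fitted on every spot 32 of 33 kept it. Of 33 values, 30 kept their sign in the deposited ratio, 27 with plain background subtraction, 27 with the brightest probe and 24 with median centring. The 1 value past 1.5-fold kept its sign.

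Median centring does not follow the dependence of the ratio on brightness: it moved the median of all measured genes to 0.16, -1.70 and -1.21 at 5, 12 and 24 hpf. Under it the median of the 11 genes was 0.32, -2.43 and -1.98 and that of the wider list 0.22, -2.05 and -1.58; 2 genes were 1.5-fold higher and 0 lower at 5 hpf, and 11 were lower at 12 and at 24 hpf. Relative to all genes the 11 genes then lay at 0.16, -0.74 and -0.77. For the wider list it gave 9 higher and 0 lower at 5 hpf, 58 lower at 12 hpf and 53 at 24 hpf. With the background fitted on every spot 0 of the 11 genes were lower at 5 hpf and 1 was higher at 12 hpf, and of the wider list 1 was higher at 5 hpf and 3 at 12 hpf. With the brightest probe 1 of the 11 genes, cat, was higher at 5 hpf, and of the wider list 5 were higher at 5 hpf, 2 at 12 hpf and 2 at 24 hpf. Plain subtraction gave 3 of the 11 genes lower at 24 hpf, namely cat, gpx1a and keap1a. Of the wider list it gave 6 higher and 4 lower at 5 hpf, 3 higher and 5 lower at 12 hpf, and 2 higher and 9 lower at 24 hpf. The deposited ratio gave 2, 1 and 1 of the 11 genes lower at the 3 stages. Of the wider list it gave 7 higher and 4 lower at 5 hpf, 2 and 8 at 12 hpf, and 1 higher and 4 lower at 24 hpf. Shares of all genes past 1.5-fold are not given here for these settings, the deposited ratio apart. Whether these counts exceed such shares was not examined. For the vehicle signal, 75th percentile scaling of signal minus background changed scaling and background handling together and gave 4 genes 2-fold higher at 12 than at 5 hpf and 2 at 24 than at 12 hpf. Both were then changed apart, in settings chosen after seeing the data. Quantiles of signal minus background gave 3 and 2 genes. 75th percentile scaling with the offset kept gave 3 and 0, while moving the median of all genes to 0.61 and 0.19. In all of these 4 of the 11 genes were 2-fold lower at 12 than at 5 hpf. Of 17907 genes, 5102, 4769 and 2282 were lower in these settings, in the order given, against 2069 in the main setting. Higher at 12 hpf were 4011, 4035 and 6208, against 2012, and higher at 24 than at 12 hpf 2736, 2191 and 707, against 803. The counts of the set therefore have to be read beside array-wide counts that also changed. The causes of these moves were not tested beyond what is stated. Signals within 20 units of background, common in red at 12 and 24 hpf, limit what can be said of cat, keap1a, the dimmer probes of gpx1a at 24 hpf and nfe2l2a at 12 hpf, and the dim probes of sqstm1 and txnb.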

Other observations

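The other peroxiredoxin genes, chosen after their values were seen, stood differently from each other between stages in vehicle signal before normalization. The 2 probes of prdx5 read 165.4 and 57.8 at 5 hpf and 3889.0 and 1148.7 at 12 hpf, whereas those of prdx6 went from 1767.9 and 1990.8 to 259.3 and 232.8, in the direction of prdx1. Those of prdx2 went from 9176.6 and 3898.7 to 5857.2 and 1919.4, and the probe of prdx4 from 763.3 to 1935.3. The probes of prdx3 were at 1319.2 and 469.8 at 5 hpf and at 1706.3 and 528.7 at 12 hpf. The glutathione peroxidase gene gpx4a read between 309.1 and 359.4 at 5 hpf and between 7220.7 and 8297.2 at 12 hpf, while its partner gpx4b stood at 1776.4 to 5955.6 and 3509.7 to 12347.3.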
